A study of Equus caballus with 16 samples.

Results

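The miRNAs described here are miR-483 and miR-675, the pair processed from the imprinted IGF2-H19 locus. They were found by name, as the rows called miR-483 or miR-675 after the eca- prefix was removed, which gave 2 of the 686 miRNAs listed. Both had a read in at least 1 library, as did 324 of the 686, and both were among the 282 that exceeded a mean of 10 CPM in 1 season or more and were fitted. The pair was chosen by its CPM values across the seasons of these same libraries, so season differences of both are given as a description, with sizes and errors and without p values. MiR-675 passed the 10 CPM filter only through FOV, where 1 library supplied all of its reads.

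Small RNA was sequenced from extracellular vesicles (EVs, membrane particles that cells release and that carry small RNAs) of ovarian follicular fluid of mares aged 8 to 14 years. Follicles of 30 to 35 mm were aspirated in spring before ovulatory cycles resumed (SAN, spring anovulatory, March), during the spring ovulatory months (SOV, April and May), in summer (SUM, June and July) and at the end of the ovulatory period in fall (FOV, September). Earlier follicles had been ablated in every season, and each of the 4 libraries per season combined the fluids of 2 to 3 mares. FOV_1 was left out of season means and comparisons, as in the study, and its values are given apart. The remaining 15 libraries are treated as independent, although the study took more fluid samples than it had mares, so mares recur between libraries. The labels do not say which mares went into each. Errors and intervals given here do not allow for this recurrence.

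IGF2, expressed from the paternal copy, encodes a fetal growth factor, and H19, expressed from the maternal copy, yields a long noncoding RNA. In humans and mice miR-483 lies in an intron of IGF2 and miR-675 in an exon of H19. Transcripts of IGF2 and H19 were not measured here, so the miRNA levels are not taken as a measure of them. In human cells miR-483-3p represses the pro-apoptotic gene BBC3 (PUMA), and in the mouse placenta miR-675 limits growth and represses Igf1r, the receptor through which IGF2 signals. Insulin-like growth factors support granulosa cell proliferation and steroid production in mammalian follicles. Position and strand in the horse genome were not analysed here.

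The mature sequences are shown because the seed, bases 2 to 8 from the 5′ end and here in capitals, sets which messenger RNAs a miRNA can pair with. They were listed in the study's table of expressed miRNAs, with T for U.
miR-483: tCACTCCTctcctcccgtcttctt
miR-675: tGGCGCGGagagggcccacagtg
The seeds differ, CACTCCT in miR-483 and GGCGCGG in miR-675. None of the other miRNAs among the 282 with a sequence carried either seed, nor the same bases 2 to 7, so the pair forms no seed family with another miRNA measured here. MiR-483 has 24 bases, of which 91.7% are pyrimidines, the highest share among the 282, where the median was 50%. MiR-675 has 23 bases and a GC content of 73.9%, and 3 of the other miRNAs had a higher one (median 47.6%, range 19.0 to 79.2%). No other sequence matched either of them at more than 14 bases.

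Depth set what could be seen of each member. The libraries held 27131 to 112146 miRNA reads (median 51696), so that a read was worth between 7.91 and 35.6 CPM. These are reads assigned to miRNAs, a small part of the clean reads that the study reports per sample. Depth here means the miRNA reads of a library. MiR-483 had 326 reads over the 16 libraries and was read in 15 of them. MiR-675 had 12 reads and was read in 4. Intervals on single libraries are exact Poisson intervals at 95% and cover counting error only. A miRNA level in EVs cannot tell fewer vesicles of one source from less of the miRNA per vesicle.

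Before the seasons are compared, the SUM libraries need a word, since SUM_1 and SUM_4 differ from SUM_2 and SUM_3 in other miRNAs. MiR-218, miR-9a and miR-7, which are abundant in neural or endocrine tissue, differed 153-fold, 111-fold and 34.5-fold between the highest and the lowest SUM library, with SUM_1 and SUM_4 high and SUM_2 and SUM_3 low. For miR-218 and miR-7, SUM_1 and SUM_4 lay above all libraries of other seasons. For miR-9a they lay within the range of other seasons, while SUM_2 and SUM_3 lay below every other library. MiR-483 differed 2.02-fold across the 4 SUM libraries, and its highest value was in SUM_2. Among 130 miRNAs that averaged over 100 CPM and were read in every SUM library, 88 varied more within SUM, with a median ratio of 2.62.

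MiR-483, the member from the IGF2 side of the locus, was highest in summer and lowest in the spring ovulatory season. Its values were 333, 57.0, 164 and 49.0 CPM in SAN_1 to SAN_4, from 11, 3, 9 and 4 reads. In SOV_1 to SOV_4 it stood at 26.2, 0, 62.3 and 85.0 CPM, from 1, 0, 3 and 4 reads, and SOV_2 was the only library without a read. These spring values lie below 100 CPM in every library except SAN_1 and SAN_3.
In SUM_1 to SUM_4 miR-483 reached 823, 1020.4, 534 and 506 CPM, from 83, 69, 15 and 64 reads. In FOV_2, FOV_3 and FOV_4 it was 67.9, 44.6 and 444 CPM, from 3, 2 and 46 reads, and FOV_1 held 164 CPM from 9 reads. All 4 SUM libraries thus lay above all other libraries, and the nearest was FOV_4, at 444 CPM against 506 CPM in SUM_4. The counting intervals of FOV_4 (325 to 592 CPM) and SUM_4 (390 to 646 CPM) overlap, so that gap is within counting error.

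**Figure D1:**
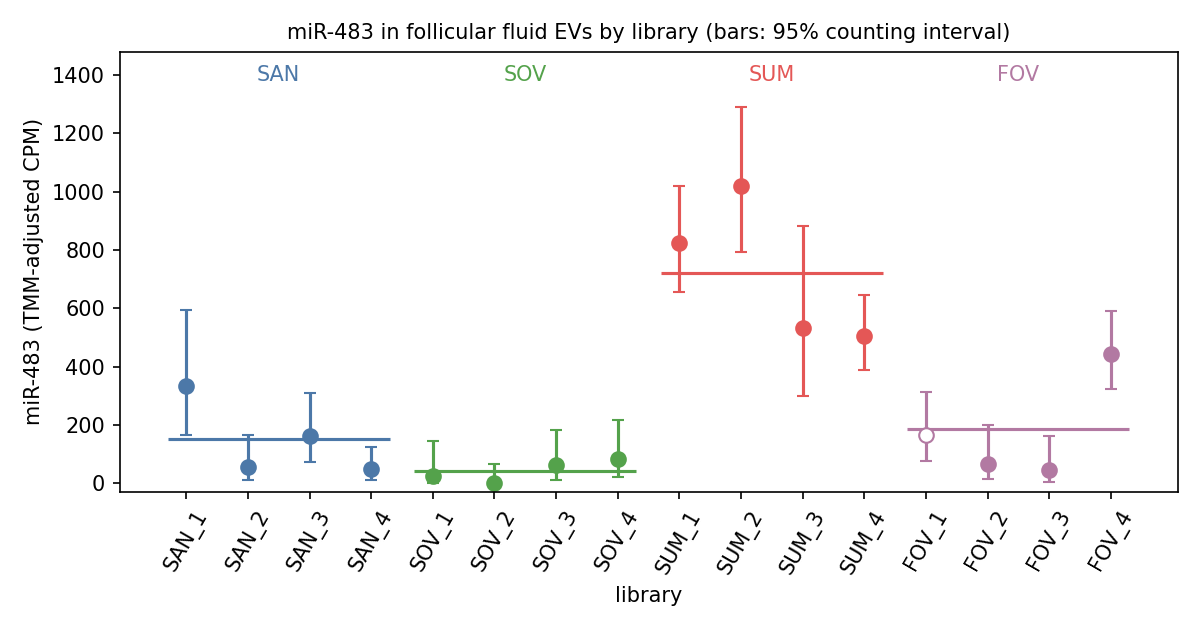
MiR-483 in TMM-adjusted CPM in each of the 16 libraries, with points for libraries, bars for exact 95% Poisson intervals on the reads and horizontal lines for season means; the open point is FOV_1, which is not in the FOV mean. The SUM points sit between 506 and 1020.4 CPM, above all others, and FOV_4 at 444 CPM stands apart from FOV_2 and FOV_3.

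By season miR-483 averaged 151 ± 132 CPM in SAN, 43.4 ± 37.7 CPM in SOV and 721 ± 246 CPM in SUM (SD, n = 4 each), and 185 ± 224 CPM in FOV (SD, n = 3). In order of these means SUM led, followed by FOV, SAN and SOV. FOV and SAN differed by less than the spread of either, and by the median their order turned round, at 67.9 CPM in FOV against 110 CPM in SAN. SOV and SAN overlapped as well, since SOV_3 and SOV_4 lay above SAN_2 and SAN_4. With the reads of a season summed, 27 reads in SAN gave 121 CPM (95% interval 80.1 to 177) and 8 reads in SOV gave 42.3 CPM (18.2 to 83.3). The 231 reads in SUM gave 715 CPM (626 to 814) and the 51 reads in FOV gave 265 CPM (197 to 348). Of the 51 FOV reads 46 came from FOV_4. Libraries of a season scattered more than counting alone gives, with a variance 6.10 times that of Poisson counts for SAN, 1.69 times for SOV, 6.48 times for SUM and 13.6 times for FOV.

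The place of miR-483 within a library changed along with its level. It ranked 55 to 87 among the 180 to 264 miRNAs detected in the SUM libraries, against 125 to 158 in the 3 SOV libraries with a read. In SAN it ranked 85 and 109 in SAN_1 and SAN_3, and 149 and 155 in SAN_2 and SAN_4. In FOV it ranked 88 in FOV_4, 154 in FOV_2 and 175 in FOV_3. FOV_4 and SAN_1 thus held miR-483 at about the rank of SUM_4, while the other libraries outside SUM held it lower. As a share of all miRNA reads it was 0.0553 to 0.106% in SUM and at most 0.00828% in SOV.

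For the season comparisons limma was fitted to log2(CPM + 1) of the 282 miRNAs in 1 model of 15 libraries, with each difference taken as the later season minus the earlier. Calls required a Benjamini-Hochberg adjusted p under 0.05 together with a fold change of at least 2. The call of miR-483 is printed beside the share of all miRNAs called, and nothing is read from it.

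SUM over SOV was the widest difference of miR-483. All 4 SUM libraries lay above all 4 SOV libraries, as they did for 13.5% of the 282 miRNAs. The mean was 16.6-fold higher in SUM, and the log2 fold change was 5.14 (SE 1.18, 95% interval 2.65 to 7.63), the sixth highest of the 282, where the median miRNA stood at 0.51. MiR-483 was called, as were 17.7% of the miRNAs in this comparison, 12.1% as higher in SUM and 5.67% as lower. The size on the log scale leans on SOV_2, which had no read: without it the log2 fold change was 3.71, and it was 4.14 in edgeR's quasi-likelihood test and 3.80 in DESeq2, both run on the reads. Without SUM_1 and SUM_4, a setting chosen after the data were seen, it was 5.24, and the call stood in each of these settings.

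SUM over SAN showed the same order with a smaller gap. The mean of miR-483 was 4.78-fold higher in SUM, at 721 CPM against 151 CPM in SAN. It was 8.02-fold higher without SAN_1, a setting chosen after the data were seen, which leaves a SAN mean of 89.9 CPM. The SAN mean was 182 CPM without SAN_2, 146 CPM without SAN_3 and 185 CPM without SAN_4. The SUM libraries, from 506 CPM up, did not overlap the SAN libraries, up to 333 CPM. Complete separation in this direction was seen for 9.93% of the miRNAs. The log2 fold change was 2.62 (SE 1.18, 95% interval 0.13 to 5.11), against a median of 0.14 over all miRNAs, and miR-483 was not called, while 9.57% of the miRNAs were, 4.26% as higher in SUM and 5.32% as lower. It was called when these seasons were fitted alone (2.62), where 22 of 262 miRNAs were called. It was also called by edgeR's quasi-likelihood test (2.59, with 44 of 282 called) and DESeq2 (2.33, with 58 of 282 called) on the reads. Its call in this comparison thus depends on the test and on the libraries fitted.

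FOV over SUM ran downward. The FOV mean was 185 CPM against 721 CPM in SUM, and FOV_2 (67.9 CPM) and FOV_3 (44.6 CPM) lay far below the lowest SUM library (506 CPM) while FOV_4 (444 CPM) lay near it. The log2 fold change was −2.63 (SE 1.28, 95% interval −5.32 to 0.06), and it was the ninth lowest of the 282. All FOV libraries lay below all SUM libraries, as for 3.55% of the miRNAs, and miR-483 was not called, where 3.55% of the miRNAs were called, 2.84% as higher in FOV and 0.709% as lower. Without FOV_4 the FOV mean was 56.3 CPM and the log2 fold change −3.62.

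The other 3 comparisons involve low counts on both sides. SOV over SAN gave a log2 fold change of −2.52 (SE 1.18, 95% interval −5.01 to −0.03) with means of 43.4 CPM in SOV and 151 CPM in SAN. It was −1.09 without SOV_2, the library with no read, and −1.55 in edgeR's quasi-likelihood test and −1.47 in DESeq2. No miRNA was called there by limma, 0% of the 282, although 31 had an unadjusted p under 0.05, and edgeR's quasi-likelihood test called 0 and DESeq2 1. FOV over SOV gave 2.51 (SE 1.28, 95% interval −0.18 to 5.20) with 2.84% of the miRNAs called and miR-483 not among them, and it was 1.08 without SOV_2 and 1.52 without FOV_4. FOV over SAN gave −0.01 (SE 1.28, 95% interval −2.70 to 2.68), where 0.709% were called and miR-483 was not, and the upper bound of this interval is a 6.42-fold higher level in FOV. These comparisons share libraries with each other and with those of SUM, so they are not separate evidence.

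**Figure D2:**
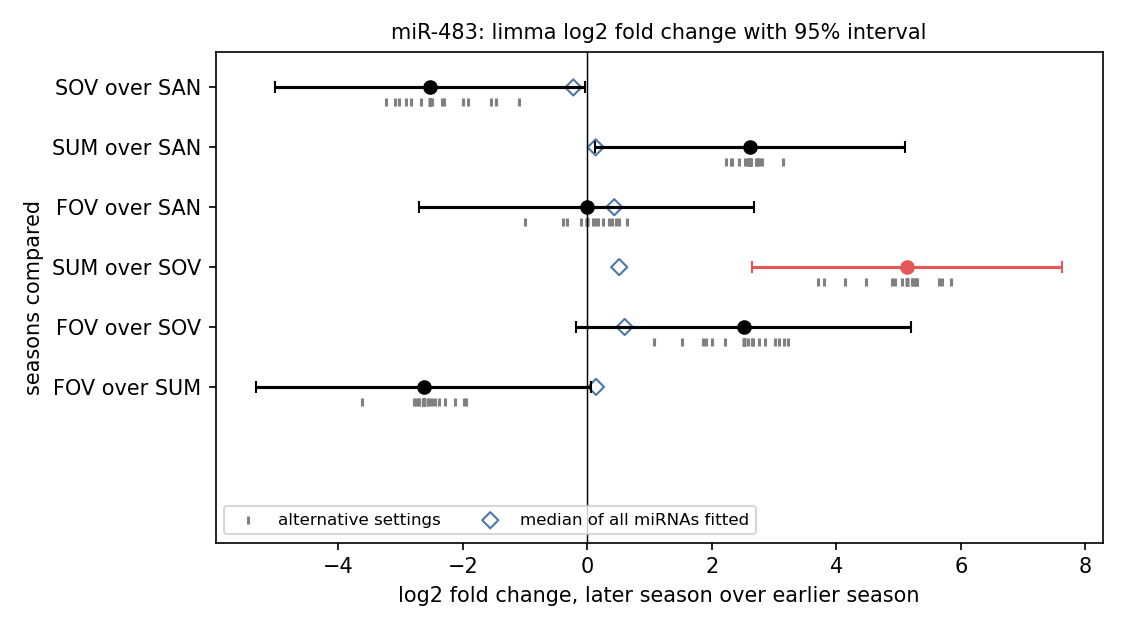
Log2 fold change of miR-483 for the 6 pairs of seasons, later over earlier, with points from limma and bars for 95% intervals; grey ticks are the alternative settings and single libraries left out, open blue diamonds the median of the 282 miRNAs, and the red point is the comparison in which miR-483 was called. SUM over SOV stands at 5.14 with ticks from 3.71 to 5.85, and FOV over SAN lies at zero.

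Complete separation of SUM from every other library compared was counted over all miRNAs. As miR-483 was chosen by its season values, its place in this count is a description only. Only 5 of the 282, or 1.77%, had each SUM library above all 11 libraries of the other seasons, and they are named here after their values were seen: miR-184, miR-10b, miR-1301, miR-125a-5p and miR-483. The lowest SUM value exceeded the highest value elsewhere 1.14-fold for miR-483, 1.42-fold for miR-125a-5p and 1.95-fold for miR-1301. For miR-184 these values were 949 CPM in SUM against 821 CPM elsewhere, and for miR-10b 42049 CPM in SUM against 41993 CPM elsewhere. By the mean miR-483 stood at 721 CPM in SUM against 121 CPM over the other 11 libraries. In the opposite direction 8 miRNAs, or 2.84%, had each SUM library below all others.

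The spread of miR-483 between libraries of a season rested largely on SOV_2. Its within-season SD on the log2(CPM + 1) scale was 1.86 over 15 libraries and 1.156 without SOV_2, a setting chosen after the data were seen. The 20 miRNAs nearest to it in mean level (186 to 410 CPM, against 281 CPM for miR-483) had a median of 1.07, and 5 of the 20 exceeded miR-483. Without SOV_2 their median was 1.03 and 8 of the 20 exceeded it. By season the SD was 1.30 for SAN, 2.95 for SOV (including the library without a read), 0.49 for SUM and 1.75 for FOV.

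**Figure D3:**
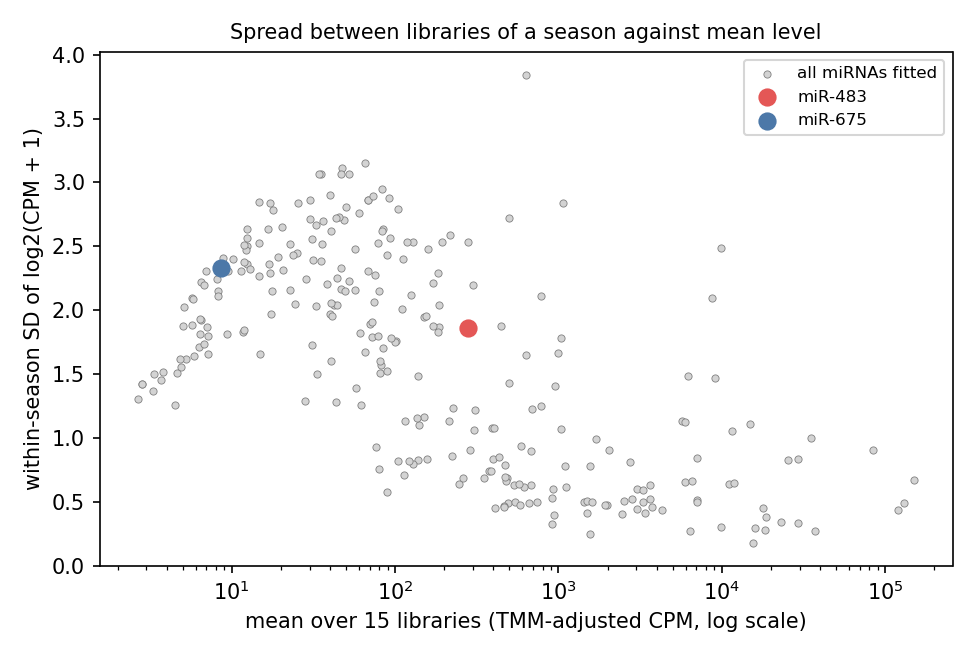
Within-season SD of log2(CPM + 1) against the mean over 15 libraries in CPM on a log axis, 1 point for each of the 282 miRNAs. MiR-483 (281 CPM, SD 1.86, or 1.156 without SOV_2) lies above the median of its neighbours in level, and miR-675 (8.63 CPM, SD 2.33) lies among miRNAs read in only a few libraries.

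MiR-675, the member from the H19 side, was close to the limit of detection in every season. It had 7 reads in FOV_4 (67.6 CPM, 95% interval 27.2 to 139), 2 in SUM_1 (19.8 CPM), 2 in SUM_4 (15.8 CPM) and 1 in SOV_1 (26.2 CPM), and none in the other 12 libraries. No SAN library held a read, which allows a level of up to 13.5 CPM there at a floor of 3 reads over the season. Season means were 6.54 ± 13.1 CPM in SOV and 8.91 ± 10.4 CPM in SUM (SD, n = 4 each), and 22.5 ± 39.0 CPM in FOV (SD, n = 3). The SOV and SUM means lie under the SAN limit, so neither can be told from SAN at this depth. The FOV mean rests on FOV_4 alone, and without that library FOV held no read of miR-675. With the reads summed, the FOV interval of 14.6 to 74.9 CPM overlaps the SAN range, whose upper counting limit is 16.6 CPM.

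Depth moved with the detection of miR-675. The 3 deepest libraries, with 105466 to 112146 reads, held 11 of its 12 reads, and the 13 libraries of up to 94216 reads held 1. SAN_4, the deepest of those 13, had none. For miR-483 the shallowest library of all, SUM_3 with 27131 reads, held 15 reads, more than any library outside SUM except FOV_4, while SAN_4 held 4. In SUM_1, SUM_4 and FOV_4 miR-483 outnumbered miR-675 by 83 to 2, 64 to 2 and 46 to 7 reads. The high miR-483 level was present in shallow and deep SUM libraries alike. Outside SUM its highest value, 444 CPM, was in FOV_4, the deepest library of all. FOV_2 and FOV_3, with 39341 and 41268 reads, held 67.9 and 44.6 CPM. The part of depth in the pattern of either member was not tested.

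**Figure D4:**
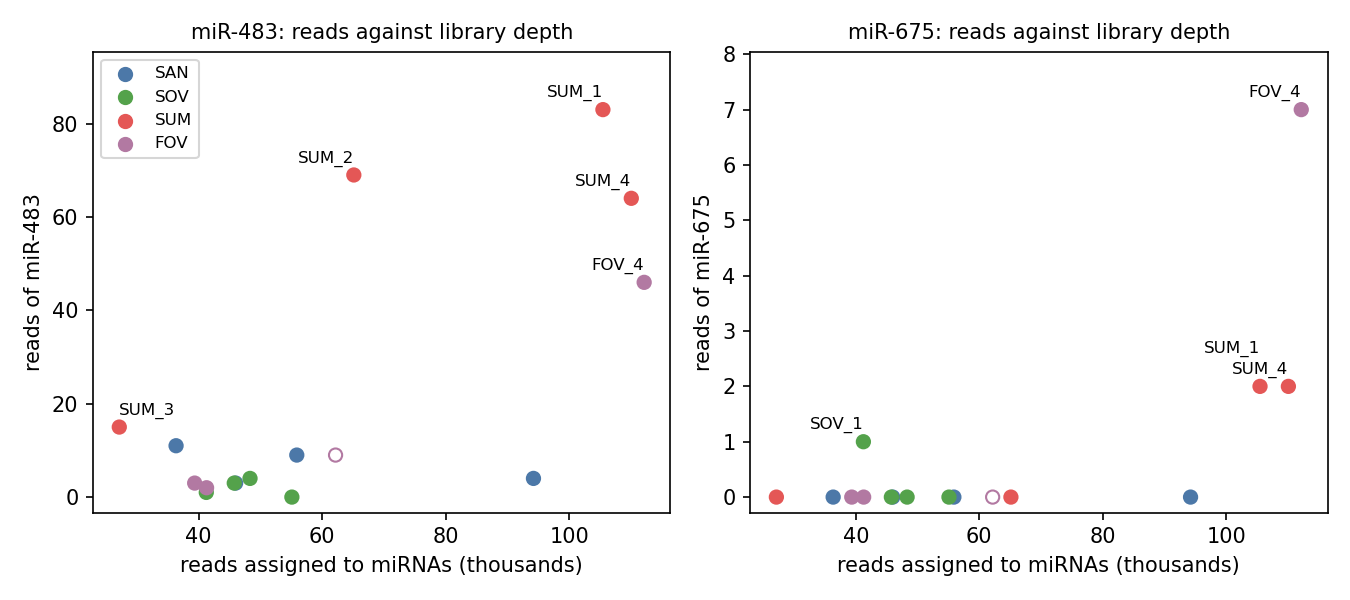
Reads of miR-483 (left) and miR-675 (right) against the reads assigned to miRNAs in each of the 16 libraries, coloured by season, with FOV_1 as an open point. SUM_3, the shallowest library, holds 15 reads of miR-483, and reads of miR-675 lie in the 3 deepest libraries apart from 1 read in SOV_1.

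In the same limma fit miR-675 was called in none of the 6 comparisons. Its log2 fold changes were 2.11 in SUM over SAN (SE 1.55), 2.03 in FOV over SAN (SE 1.67), 1.19 in SOV over SAN (SE 1.55), 0.92 in SUM over SOV (SE 1.55), 0.84 in FOV over SOV (SE 1.67) and −0.08 in FOV over SUM (SE 1.67). Each lies within 2 SE of zero, and each fitted value depends on the 1 CPM added before taking logs, since most libraries stand at 0. By mean CPM over 15 libraries miR-483 stood at rank 104 and miR-675 at rank 249 of the 282.

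The miRNAs most like miR-483 across the 15 libraries were sought among the 138 others with a mean above 100 CPM, by Pearson correlation of log2(CPM + 1). These values are descriptions without a test, since the miRNAs were picked for them and since season differences enter every correlation. MiR-409-3p came first (r = 0.70, Spearman rho 0.74), then miR-134 (0.69, rho 0.76) and miR-495 (0.66, rho 0.46), all of the imprinted DLK1-DIO3 cluster. Next were miR-122, the main miRNA of hepatocytes (0.65, rho 0.61), and miR-22, which represses the estrogen receptor ESR1 (0.63, rho 0.65). The median over the 138 was 0.13. By Spearman these 5 ranked 4, 3, 38, 17 and 12 of the 138, so other miRNAs came first and the order depends on the measure. With SOV_2 and SUM_2 left out, the libraries farthest from the median of miR-483, these 5 values were 0.81, 0.71, 0.58, 0.61 and 0.70.
After season means were subtracted, the same correlations fell to 0.20 for miR-409-3p, 0.50 for miR-134, 0.43 for miR-495, 0.26 for miR-122 and −0.05 for miR-22. In this order they ranked 21, 2, 4, 14 and 61 of the 138. Most of the likeness of miR-409-3p and miR-22 thus lay between seasons, and that of miR-134 and miR-495 was present within them as well. These within-season values include SOV_2, the library with no read of miR-483, and were not computed without it. The most opposite miRNAs were miR-195, a cell cycle inhibitor with the miR-16 seed (r = −0.82, rho −0.91), miR-23b (−0.73, rho −0.83) and miR-199a-5p (−0.72, rho −0.80). Without SOV_2 and SUM_2 these were −0.87, −0.84 and −0.79, and within seasons −0.56, −0.31 and −0.47. In FOV_4, the FOV library with the highest miR-483, miR-409-3p was 8309 CPM and miR-195 was 125 CPM, while in FOV_2 miR-409-3p was 2197 CPM and miR-195 was 340 CPM.

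**Figure D5:**
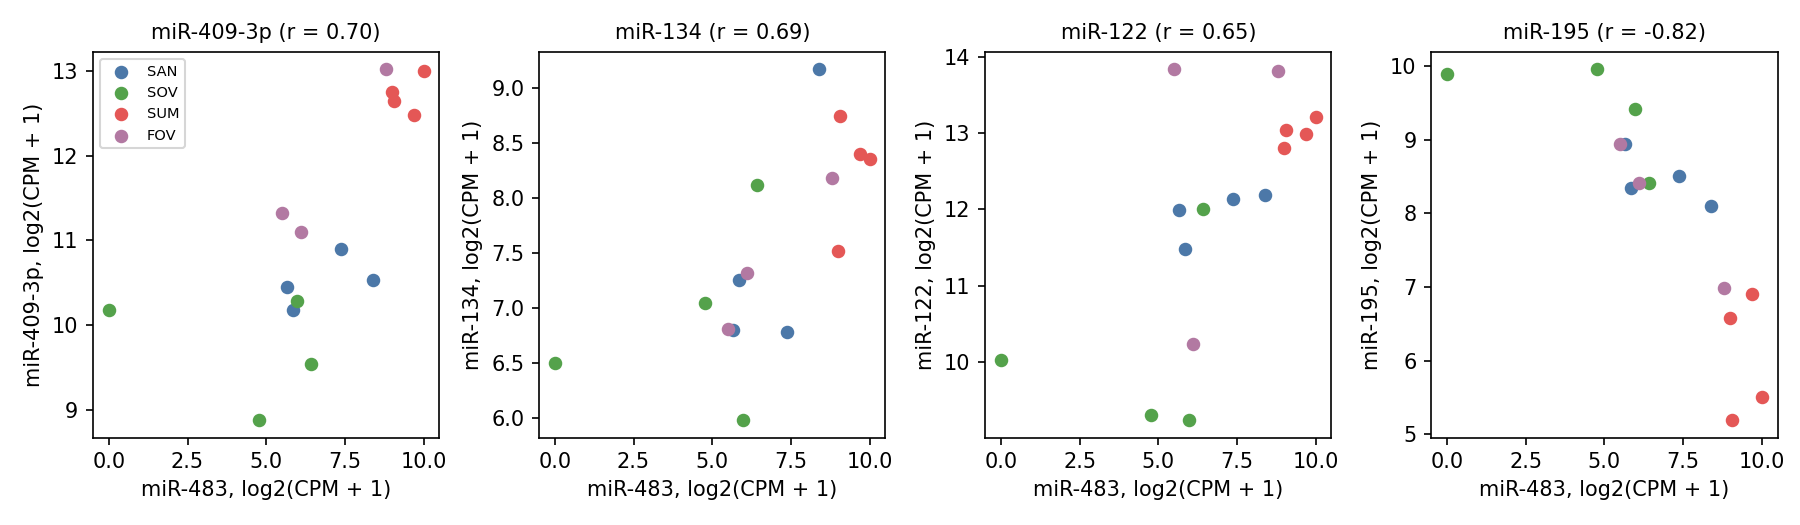
MiR-409-3p, miR-134, miR-122 and miR-195 against miR-483 in 15 libraries coloured by season, all in log2(CPM + 1), with Pearson's r above each panel. The SUM libraries lie at the right of every panel, high for miR-409-3p (r = 0.70) and low for miR-195 (r = −0.82).

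Other imprinted loci also hold miRNAs, and 60 names of the MEST, GNAS and DLK1-DIO3 loci were listed for comparison, of which 52 were in the table and 38 were fitted. In SUM over SOV 6 of the 38 were called higher and 1 lower, beside 12.1% higher and 5.67% lower of all 282, with a median log2 fold change of 1.25, against 0.51 for all miRNAs, and none of the 38 had a larger value than miR-483. In SUM over SAN 4 were called higher and 1 lower, beside 4.26% and 5.32% of all (median 0.59, against 0.14), and 4 of the 38 exceeded miR-483. In FOV over SUM 1 was called higher and none lower, beside 2.84% and 0.709% of all (median 0.81, against 0.14), where miR-483 stood at −2.63 and 37 of the 38 lay above it.
Among the called miRNAs miR-323-3p, miR-409-3p and miR-485-5p were higher in SUM than in both spring seasons, with log2 fold changes of 3.51, 2.99 and 2.86 over SOV and 3.67, 2.198 and 2.44 over SAN. MiR-485-3p (4.97), miR-543 (2.22) and miR-495 (1.91) were called in SUM over SOV alone, and miR-432 (2.79) in SUM over SAN alone. MiR-493b ran the other way, at −4.72 over SOV and −4.17 over SAN, and was called higher in FOV over SUM (5.20). MiR-335, from an intron of MEST, averaged 65.3 ± 58.5 CPM in SUM against 400.3 ± 428 CPM in SOV (SD, n = 4 each), and miR-296, of the GNAS locus, 8.91 ± 10.4 CPM in SUM against 24.5 ± 30.3 CPM in SOV, and neither was called. MiR-493b averaged 3.95 ± 7.91 CPM in SUM against 59.1 ± 28.4 CPM in SOV, so its fold change depends on the 1 CPM added before taking logs. The miRNAs of these loci that stood lower in SUM were thus near the floor or not called, and nothing about imprinting is read from them.

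Markers of tissues other than the follicle were present in these EVs. In SUM over SOV miR-122 (liver), miR-128 (brain), miR-206 (muscle), miR-486-3p and miR-486-5p (erythrocyte) were called higher, as miR-483 was. MiR-451 (erythrocyte) was called lower, and no other listed marker was called there. Of all miRNAs 12.1% were called higher and 5.67% lower. The liver list of 2 miRNAs rests on miR-122, since miR-885-5p had 2 reads in all and was not fitted, and it summed to 2851 to 4663 CPM in the SAN libraries, 602 to 4121 CPM in SOV, 7181 to 9450 CPM in SUM and 1200 to 14664 CPM in FOV. MiR-122 was called in SUM over SOV (log2 fold change 2.87, SE 0.67). FOV_3 held 14664 CPM of miR-122 at 44.6 CPM of miR-483, and FOV_4 held 14456 CPM of miR-122 at 444 CPM of miR-483.
Of the granulosa and follicle list 7 of 9 names were in the table, all with reads, and none of the 7 was called in any comparison. Of all miRNAs 0 to 17.7% were called, depending on the comparison, so the lack of calls in so short a list does not show an unchanged level. MiR-424, at a mean of 41.1 CPM, was not counted, because the list held the name miR-424-5p. The 7 summed to 4928 to 10211 CPM in SUM and 3220 to 7074 CPM in SOV. Most of this sum was miR-378, at a mean of 6539 CPM over the 15 libraries, with miR-224 next at 216 CPM. Of 4 erythrocyte markers miR-486-3p and miR-486-5p were called higher in SUM over SOV and miR-451 lower, where 12.1% of all miRNAs were called higher and 5.67% lower, with sums of 8589 to 73542 CPM in SUM and 6979 to 13447 CPM in SOV. None of 5 leukocyte markers was called in any comparison, again beside 0 to 17.7% of all miRNAs. Leukocyte sums were 545 to 2280 CPM in SUM and 233 to 1288 CPM in SOV. Of 3 brain and 4 muscle markers miR-128 and miR-206 were called higher in SUM over SOV, beside 12.1% of all, and the others were not called there. Brain sums were 17275 to 37895 CPM in SUM and 4084 to 26043 CPM in SOV. Muscle sums were 1732 to 16420 CPM in SUM and 5735 to 12435 CPM in SOV. MiR-1, the most abundant muscle marker, averaged 4411 CPM in SUM against 9756 CPM in SOV, and miR-133a 94.6 against 106 CPM. MiR-9a averaged 8210 CPM in SUM against 6770 CPM in SOV, with 177 and 249 CPM in SUM_2 and SUM_3. In SUM over SAN miR-486-3p and miR-128 were called higher and miR-451 lower, beside 4.26% higher and 5.32% lower of all. In FOV over SUM miR-451 was called higher, beside 2.84% of all, and in FOV over SOV miR-128 was, where 2.84% of all were called. The part of these lists in the level of miR-483 was not tested.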

How the data were processed

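EVs of follicular fluid were pelleted by ultracentrifugation, their RNA was made into Illumina TruSeq small RNA libraries and sequenced as single-end reads. The authors deposited CPM with a TMM adjustment, a signal equal to the read count divided by 1 factor per library. Per the study's methods reads were trimmed, mapped to EquCab3.0 and annotated against miRBase in CLC Genomics Workbench, while the submitters' processing notes name bcl2fastq, Bowtie2 2.2.2 and DESeq2. Which applies was not settled here. Multiplying by that factor gave whole reads for 100% of values (within 1e-06 reads). Duplicated libraries were not found (lowest chi-square per degree of freedom 8.62 over 120 pairs).

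Seasons were compared by limma 3.58.1 in R 4.3.3 (intensity trend, log2(CPM + 1), mean over 10 CPM required in 1 season or more), and edgeR 4.0.16 and DESeq2 1.42.0 on the recovered reads as alternatives. Plots used matplotlib 3.10.9 under Python 3.11.15. The members, lists and tests were chosen with earlier results of these data known.

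Named were both members, the 5 most and 3 least correlated miRNAs with a mean above 100 CPM, miRNAs with a shared seed, listed imprinted miRNAs called in a comparison of SUM, and miR-9a, miR-218 and miR-7. MiR-184, miR-10b, miR-1301, miR-125a-5p and the named markers, chosen after their values were seen, fall outside this rule. Alternatives were other scalings (equal totals, median-of-ratios), filters (none, 100 CPM) and pseudocounts (0.25 CPM, 5 CPM). Further alternatives were FOV_1 included, the compared seasons alone, edgeR, DESeq2, a replicate block and each library left out. Leaving out SUM_1 and SUM_4 together was chosen after the data were seen. So were SOV_2 left out of the spread and SAN_1 left out of the SUM over SAN ratio of means.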

Additional observations from a re-analysis of the deposited data

Results flagged for a closer look

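The 8 combinations of a member and a season were searched for a library far from the other 3 of its season (FOV_1 included). Chance flags about 1 in 20 such groups, but not where the other 3 libraries are at 0: there any read meets the criterion, as in both miR-675 cases, so these are given as values only. MiR-675 in SOV_1 was 26.2 CPM, from 1 read (95% interval 0.663 to 146 CPM), where the other SOV libraries had none and counting allows up to 66.1 to 78.4 CPM. MiR-675 in FOV_4 was 67.6 CPM, from 7 reads (27.2 to 139 CPM), where the other FOV libraries had none and counting allows up to 67.4 to 83.5 CPM. MiR-483 in FOV_1, a library outside the comparisons, reached 164 CPM from 9 reads, above the 54.8 CPM that 3 reads stand for in that library.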

How the results depend on the processing

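The call of miR-483 in SUM over SOV stood in all 11 planned settings (log2 fold change 3.80 to 5.66) and in all 15 fits without 1 library (3.71 to 5.85). These fits share the libraries whose values chose miR-483, so they describe the size of the difference and are not separate evidence. In SUM over SAN miR-483 became called with the seasons fitted alone (2.62), edgeR's quasi-likelihood test (2.59) and DESeq2 (2.33), and in no fit without 1 library (2.23 to 3.14). FOV over SAN, −0.01, changed sign with FOV_1 kept (0.13), a pseudocount of 5 CPM (0.00021), equal totals (0.0915), the replicate block (0.25), edgeR (0.46) and DESeq2 (0.39), and ran from −1.003 to 0.64 without 1 library. MiR-675 in FOV over SUM, −0.08, changed sign with a pseudocount of 5 CPM (0.19), the replicate block (0.57), edgeR (0.97), DESeq2 (1.19) and SUM_1 and SUM_4 left out (2.03), and ran from −0.78 to 0.94 without 1 library, and SUM over SOV, 0.92, became −1.19 with SUM_1 and SUM_4 left out. Causes were not tested. A filter of 100 CPM gives no value for miR-675. Same-numbered libraries deviated together with r from −0.27 to 0.27 in 21 pairs, above 0.1 in 3, so the numbers were not taken as pairs, and the block changed no call of miR-483. Over settings other than single libraries left out, all miRNAs called numbered 41 to 58 in SUM over SOV (50 in limma), 16 to 58 in SUM over SAN (27), 6 to 34 in FOV over SUM (10), 3 to 20 in FOV over SOV (8), 0 to 12 in FOV over SAN (2) and 0 to 1 in SOV over SAN (0). Without 1 library these were 32 (SOV_1 out) to 57, 10 (SUM_4 out) to 27, 4 (FOV_3 out) to 19 (FOV_4 out), 6 to 15 (SOV_4 out), 0 to 6 (FOV_4 out) and 0 to 5 (SAN_1 out). Median-of-ratios scaling moved the median of all miRNAs in SUM over SOV to 0.22, with miR-483 at 4.90. With 12 reads of miR-675 in all and 8 of miR-483 in SOV, counting error is wide for both.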
